A study of Arabidopsis thaliana with 48 samples.

Results

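The comparison described here asks how the transcriptional response to induction differed between 2 estradiol-inducible Arabidopsis thaliana lines, CNA-SmHOX32 and CNA. CNA is CORONA, also called ATHB-15, a transcription factor of the class III homeodomain leucine zipper (HD-ZIPIII) family, and CNA-SmHOX32 is one of the chimeric CNA constructs of the study. What the suffix stands for and which stretch of CNA it replaces are not given in the sources used here. The 4 groups were induced CNA-SmHOX32, mock CNA-SmHOX32, induced CNA and mock CNA, with 3 biological replicates each, and so 12 of the 48 libraries of the series. All seedlings were of the T2 generation, carried an inducible construct and stood on agarose plates. At 9 days they received 10 sprays. Induced seedlings were sprayed with β-estradiol at 50 µM in a carrier of the wetting agent Silwet L-77 (0.005%) and DMSO (1%), and mock seedlings with the carrier alone. Whole seedlings were collected 24 h later, at 10 days, so that a count pools all tissues, and a change per cell cannot be told apart from a change in the number of cells of a type. The number of insertion events behind each line is not given, so line and insertion cannot be told apart.

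The quantity tested was the difference in response, that is the log2 induced-over-mock ratio of CNA-SmHOX32 minus that of CNA. A negative value means that the response of CNA-SmHOX32 was the lower one. Polyadenylated RNA was counted with QuantSeq, which reads the 3' ends of transcripts, and levels are given as CPM (each count relative to the library's normalised total), which do not depend on transcript length in this assay. A gene was called at an adjusted p below 0.05 in edgeR's quasi-likelihood test with Benjamini-Hochberg adjustment over the 18909 genes tested. That fit used all 48 libraries of the series, which share 1 estimate of spread. A second fit used only the 12 libraries.

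HD-ZIPIII proteins bind DNA as dimers through a homeodomain and a leucine zipper, and they specify the upper side of the leaf, the shoot meristem and the vascular pattern. Their family in Arabidopsis comprises ATHB-15, PHB, PHV, REV and HB-8. The LITTLE ZIPPER (ZPR) genes encode small proteins with a leucine zipper and no homeodomain, which form inactive dimers with HD-ZIPIII proteins, and HD-ZIPIII proteins in turn switch ZPR genes on. Dehydrins and other late embryogenesis abundant (LEA) proteins are hydrophilic proteins that protect cells during drying and freezing. Their genes respond to the hormone abscisic acid through promoter elements with the core ACGTG, and to cold and drought through elements with the core CCGAC.

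Depth in the 12 libraries ran from 2812517 to 10775753 counts. Spread differed between the lines: the biological coefficient of variation was 91.4% over the CNA-SmHOX32 libraries and 64.6% over the CNA libraries, against 60.9% over the whole series. Replicate 2 of mock CNA-SmHOX32 stood apart. It had 3175734 counts and the fewest genes detected, 14077, and its Spearman correlations with the other 11 libraries across genes were 0.764 to 0.813, while those among the others were 0.797 to 0.938. Where leaving it out ended the call of a gene described in the text, that is said beside the gene. Replicate 2 of induced CNA was the smallest of the 12.

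In all, 519 genes were called in the difference in response, 2.74% of those tested, 214 higher (1.13%) and 305 lower (1.61%) in CNA-SmHOX32. The median over all tested genes was 0.15 on the log2 scale, 0.018 to 0.26 with 1 of the 12 libraries left out, and 0.09 in the 12-library fit. In the 12-library fit 167 genes were called (1.02% of 16347), 154 lower (0.942%) and 13 higher (0.0795%). Both fits called 149 of the 305 lower genes (0.788% of all tested) and 13 of the 214 higher genes (0.0688%). The balance of directions depended on single mock libraries of CNA-SmHOX32: 414 genes were higher and 322 lower without replicate 1, 145 higher and 255 lower without replicate 2, and 372 higher and 379 lower without replicate 3. Without replicate 2 of induced CNA 308 genes were called in all, 98 higher and 210 lower. It was 325, 116 higher and 209 lower, without mock replicate 2 of CNA. At least 1 of the 4 groups had at most 3 counts in each library for 91 of the 214 higher genes and 37 of the 305 lower ones. Among the higher genes this held in mock CNA-SmHOX32 for 81 and in induced CNA for 39. Among the lower ones it held in induced CNA-SmHOX32 for 35 and in mock CNA for 9. A gene can be in more than 1 of these counts. The same share over all tested genes was not computed.

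Each line on its own responded broadly. CNA-SmHOX32 induction changed 1914 genes (10.1%), with 897 raised (4.74%) and 1017 lowered (5.38%). CNA induction changed 1514 (8.01%), with 766 raised (4.05%) and 748 lowered (3.96%). Of the 766 genes that rose in CNA, 224 also rose in CNA-SmHOX32 and 17 fell there. These 766 were selected by their CNA values, which also enter the difference. Their median log2 response was 0.56 in CNA-SmHOX32 and 1.50 in CNA, and the difference was called lower for 160 of them and higher for 1. Among the 748 genes that fell in CNA, 360 also fell in CNA-SmHOX32, the median was -1.0 in CNA-SmHOX32 and -1.59 in CNA, and the difference was called higher for 47 and lower for 8. The same selection made on the other line gave 136 higher and 11 lower among the 897 genes that rose in CNA-SmHOX32. It gave 0 higher and 144 lower among the 1017 that fell there.

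**Figure D1:**
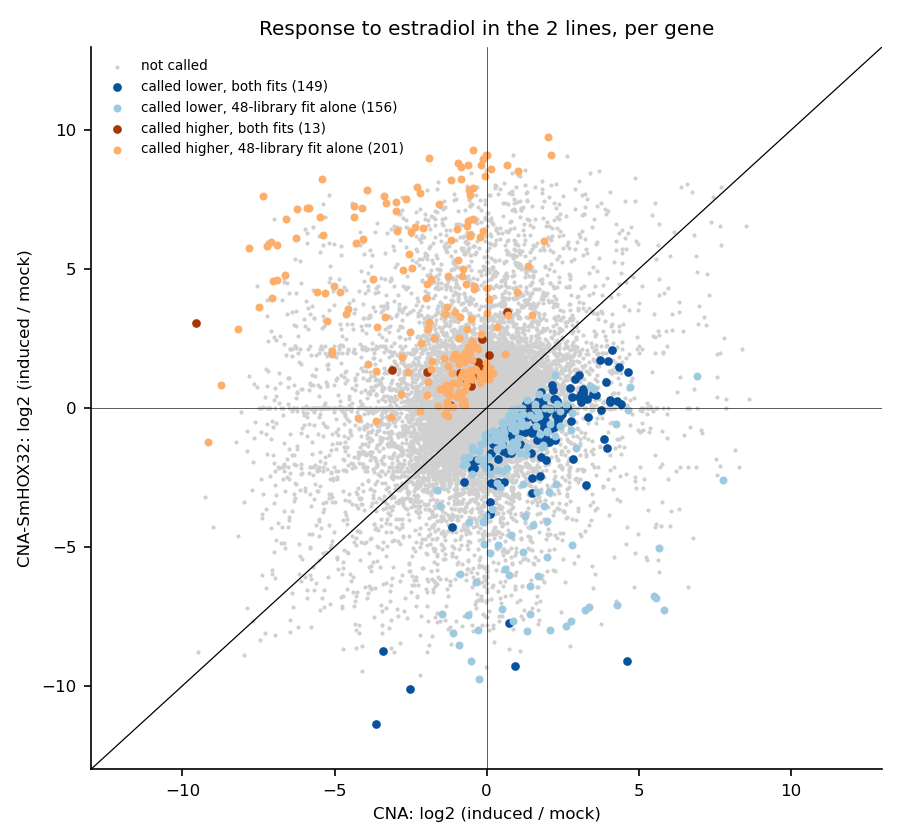
Each point is a gene, with its log2 induced-over-mock ratio in CNA on the x axis and in CNA-SmHOX32 on the y axis; the diagonal marks equal responses. Blue points below the diagonal are the 305 genes called lower and orange points above it the 214 called higher, dark where both fits called them (149 and 13). Many dark blue points lie right of 0 on the x axis and near 0 on the y axis.

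The HD-ZIPIII genes and their ZPR inhibitors come first. ATHB-15, the gene that encodes CNA itself, had 46.4, 45.7 and 37.2 CPM in induced and 7.98, 13.3 and 31.2 CPM in mock CNA-SmHOX32 seedlings, against 55.6, 47 and 73.9 CPM in induced and 19.2, 13.6 and 14.8 CPM in mock CNA seedlings. It rose in both lines, with adjusted p = 0.0357 in CNA-SmHOX32 and 0.00134 in CNA, and the difference of -0.59 ± 0.59 (SE) was not called (adjusted p = 0.674). Mock replicate 3 of CNA-SmHOX32 was the highest of the mock libraries, and without it the difference was 0.15. Whether reads from an introduced construct count towards ATHB-15 cannot be read from a gene count. PHB, PHV, REV and HB-8 were at or below 16.3 CPM on average in each of the 4 groups and were called in neither induction nor in the difference.

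ZPR1 and ZPR4, a pair of HD-ZIPIII targets, differed in their behaviour. ZPR1 had 365, 322 and 321 CPM in induced and 20.3, 52.4 and 23.7 CPM in mock CNA-SmHOX32 seedlings, against 505, 233 and 655 CPM in induced and 46.5, 30.3 and 23.4 CPM in mock CNA seedlings. It rose in both lines with no overlap between induced and mock libraries, 10.7-fold in CNA-SmHOX32 and 13.8-fold in CNA, and the difference of -0.37 ± 0.42 was not called (adjusted p = 0.728). ZPR4 had 15.7, 14 and 10.9 CPM in induced and 12.7, 11.6 and 1.47 CPM in mock CNA-SmHOX32 seedlings, against 84.3, 69.5 and 47.2 CPM in induced and 3.69, 8.77 and 4.94 CPM in mock CNA seedlings. It rose 11.5-fold in CNA (adjusted p = 3.10e-07), whereas in CNA-SmHOX32 it was 1.6 times the mock level (adjusted p = 0.398), with 2 of the 3 mock libraries within the range of the induced ones. The difference for ZPR4 was -2.85 ± 0.67 with adjusted p = 0.00843 in the 48-library fit, but 0.141 in the 12-library fit, 0.0537 without mock replicate 1 of CNA-SmHOX32 and 0.499 with limma's voom. In CNA-PpHOX32, another chimera of the study, ZPR4 had 139, 89.7 and 99.9 CPM in induced and 7.85, 2.76 and 8.8 CPM in mock seedlings. The response of CNA-SmHOX32 was lower than that of CNA-PpHOX32 by a called -3.43 on the log2 scale (edgeR, adjusted p = 0.00144). With limma's voom that difference was not called. ZPR3 had at most 17.8 CPM in any of the 12 libraries and was not called. ZPR2 had too few counts to be tested.

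**Figure D2:**
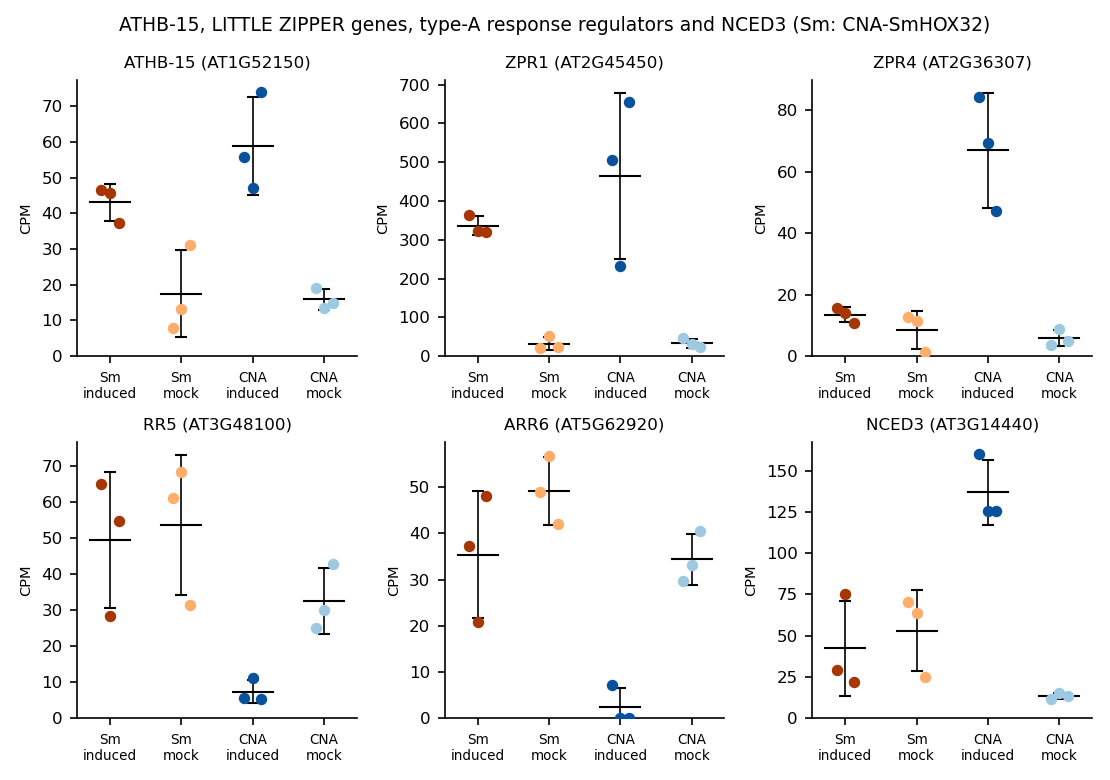
Levels in CPM (y axis, from 0) in the 3 libraries of each group for 6 genes, with the mean (line) and SD (bar). ZPR1 is high in both induced groups and ZPR4 in induced CNA, RR5 and ARR6 are lowest in induced CNA, and NCED3 is highest in induced CNA.

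Cold and dehydration genes had more called members than any other list. Of the 17 tested genes of this list, 9 were called lower in the difference and 0 higher, beside 1.61% lower among all genes, and the same 9 were called in the 12-library fit. The median over the 17 was -1.86 on the log2 scale, against 0.15 over all genes. In CNA 10 of the 17 rose and 0 fell (4.05% and 3.96% of all genes). In CNA-SmHOX32 4 rose and 1 fell (4.74% and 5.38% of all genes). With each of the 12 libraries left out in turn, 9 or 10 genes of the list were called lower, and 9 without mock replicate 2 of CNA-SmHOX32.

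Dehydrin genes led the list. LTI30, a dehydrin made in the cold, had 360.4, 309.7 and 269 CPM in induced and 181, 99.6 and 98.9 CPM in mock CNA-SmHOX32 seedlings, against 2189.6, 2722 and 1342 CPM in induced and 84.2, 77.4 and 87.3 CPM in mock CNA seedlings. It rose 2.47-fold in CNA-SmHOX32 and 25.1-fold in CNA, and the difference was -3.35 ± 0.31 (adjusted p = 3.45e-11). Induced and mock libraries did not overlap in either line, and the lowest induced CNA library stood above the highest induced CNA-SmHOX32 library. RAB18, a dehydrin strongly induced by abscisic acid, had 1502, 618 and 820.0 CPM in induced and 2896, 1860.2 and 1733 CPM in mock CNA-SmHOX32 seedlings, against 9464, 8414 and 1027 CPM in induced and 1316, 1214 and 1473 CPM in mock CNA seedlings. It fell in CNA-SmHOX32 (adjusted p = 0.0303) and rose in CNA (adjusted p = 1.16e-05), with a difference of -3.38 ± 0.52 (adjusted p = 1.53e-05). In CNA, induced replicates 1 and 2 were high and induced replicate 3 lay below each mock CNA library. RAB18 overlaps an antisense neighbour, AT5G66410, and whether the counting used strand is not given.

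ERD10 and COR47 are neighbouring dehydrin genes that respond to cold and early dehydration. ERD10 had 661, 889 and 742 CPM in induced and 551, 534 and 351 CPM in mock CNA-SmHOX32 seedlings, against 1925, 3269 and 2614 CPM in induced and 249, 294 and 329 CPM in mock CNA seedlings. COR47 had 1974, 2094 and 2355 CPM in induced and 2043, 2194 and 1205 CPM in mock CNA-SmHOX32 seedlings, against 4859, 8511 and 4621 CPM in induced and 1077, 1309 and 1232 CPM in mock CNA seedlings. For each gene the 3 induced CNA libraries were the highest of the 12, and the 2 CNA-SmHOX32 groups overlapped for COR47. The difference was -2.49 ± 0.35 for ERD10 (adjusted p = 2.18e-06) and -2.07 ± 0.28 for COR47 (adjusted p = 9.20e-07).

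The other members called lower were LTI78 (RD29A) and LTI65 (RD29B), classic drought and abscisic acid marker genes, the small hydrophilic protein genes KIN1 and KIN2, and LEA14. LTI78 rose in both lines and less in CNA-SmHOX32, with 1049, 2300.1 and 1599 CPM in induced and 467, 470.2 and 232 CPM in mock CNA-SmHOX32 seedlings, against 2353, 4565 and 3898 CPM in induced and 191, 244 and 189 CPM in mock CNA seedlings. KIN1 likewise had 1248, 1014 and 1226 CPM in induced and 488, 193 and 365 CPM in mock CNA-SmHOX32 seedlings, against 6444, 4908 and 3097 CPM in induced and 373, 348 and 365 CPM in mock CNA seedlings. The fold was 4.23 in CNA-SmHOX32 and 17.3 in CNA for LTI78, and 3.33 in CNA-SmHOX32 and 13.3 in CNA for KIN1. LEA14 rose 2.06-fold in CNA-SmHOX32 and 7.44-fold in CNA. LTI65 and KIN2 rose in CNA (9.08-fold and 3.22-fold) and were not called in CNA-SmHOX32. KIN1 and KIN2 are near-identical neighbours whose reads the counting could have split, and both were called lower.

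The remaining members of the list included the DREB transcription factor genes CBF1, CBF2 and DREB1A, which activate cold genes through CCGAC. None of the 3 was called in either induction or in the difference. CBF2, the most abundant, averaged 45.6 ± 32.7 CPM in induced and 23.9 ± 12.1 CPM in mock CNA-SmHOX32 seedlings, and 29.3 ± 13.7 CPM in induced and 12.4 ± 8.05 CPM in mock CNA seedlings (SD, n = 3 each). COR15A and COR15B, near-identical neighbours that encode a chloroplast protein made in the cold, were not called in the difference (adjusted p = 0.556 and 0.101).

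**Figure D3:**
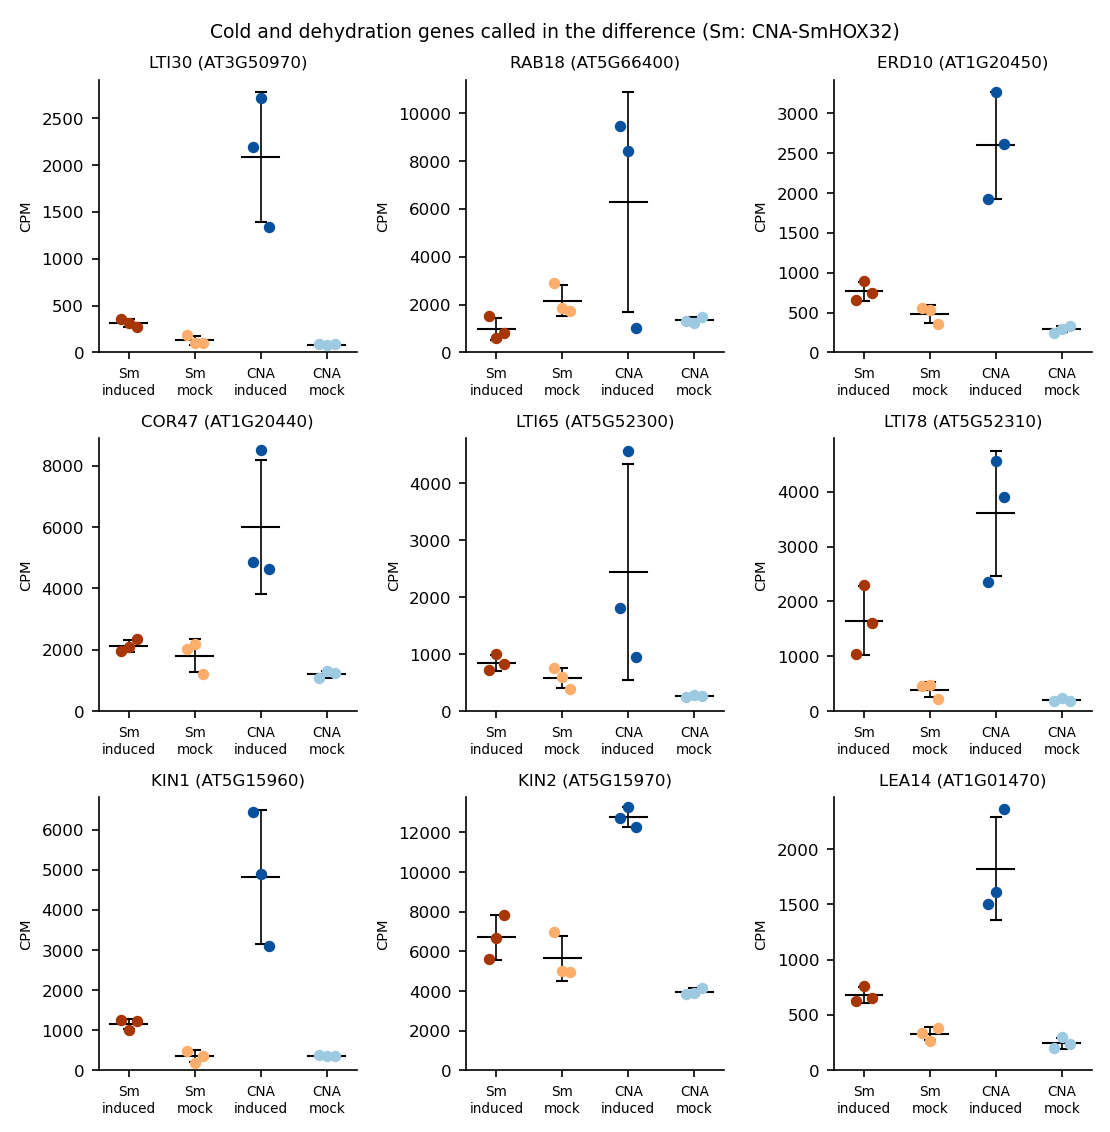
Levels in CPM (y axis, from 0) in the 3 libraries of each group for the 9 cold and dehydration genes called lower, with the mean (line) and SD (bar). The induced CNA group has the highest mean in each panel, and replicate 3 of that group is low for RAB18.

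Summed over the 17 genes, the list stood at 14203 to 16665 CPM in induced and 10049.6 to 14875 CPM in mock CNA-SmHOX32 seedlings, against 33173 to 53609.8 CPM in induced and 8124 to 8975 CPM in mock CNA seedlings. The induced CNA libraries did not overlap with those of any other group. Tested directly, the induced groups differed for 11 of the 17 genes, 11 lower and 0 higher in CNA-SmHOX32 (backgrounds 3.56% and 2.51%). The mock groups differed for 4, with 3 higher and 1 lower in CNA-SmHOX32 (backgrounds 3.74% and 4.94%). CNA-PpHOX32 stood at 35891 to 42522 CPM in induced and 10409.8 to 11006 CPM in mock seedlings. The response of CNA-SmHOX32 was lower than that of CNA-PpHOX32 for 8 of the 17 genes and higher for 1, beside 1.03% lower and 1.26% higher among all genes. With limma's voom 4 of the 17 were called in that comparison.

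The promoters of RAB18, LTI78 and LTI30 are shown as members of the list called lower in the difference that hold the cores ACGTG or CCGAC. Both cores were searched on both strands after the difference had been seen, and matches are in capitals. The 3 sequences are the 250 bases before the annotated start, 5′ to 3′ on the gene's strand, read from the RefSeq sequence of TAIR10.1.
RAB18, chr5:26519448-26519697, minus strand: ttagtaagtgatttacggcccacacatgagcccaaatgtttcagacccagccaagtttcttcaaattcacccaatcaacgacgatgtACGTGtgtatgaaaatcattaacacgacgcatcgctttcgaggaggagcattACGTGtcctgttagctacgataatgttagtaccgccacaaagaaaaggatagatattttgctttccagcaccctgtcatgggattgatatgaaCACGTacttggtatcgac
LTI78, chr5:21240467-21240716, plus strand: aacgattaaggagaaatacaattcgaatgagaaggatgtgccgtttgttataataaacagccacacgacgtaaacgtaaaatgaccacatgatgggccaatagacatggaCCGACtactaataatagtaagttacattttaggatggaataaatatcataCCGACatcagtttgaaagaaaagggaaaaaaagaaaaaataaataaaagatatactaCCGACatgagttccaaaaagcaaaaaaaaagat
LTI30, chr3:18940393-18940642, plus strand: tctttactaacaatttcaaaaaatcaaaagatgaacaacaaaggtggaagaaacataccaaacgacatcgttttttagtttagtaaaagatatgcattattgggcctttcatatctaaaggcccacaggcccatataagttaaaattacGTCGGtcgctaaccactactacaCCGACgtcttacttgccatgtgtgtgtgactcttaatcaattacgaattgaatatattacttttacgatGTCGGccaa
The RAB18 promoter holds 3 matches to ACGTG and 0 to CCGAC, while those of LTI78 and LTI30 hold 3 matches each to CCGAC and 0 to ACGTG. In windows of 300 bases (250 before and 50 after the start), ACGTG was present in 6 of the 9 list members called lower, in 43.6% of the 305 genes called lower, in 24.3% of the 214 called higher and in 28.1% of all tested genes. CCGAC was present in 4 of the 9, in 22.3% of the genes called lower, in 11.7% of those called higher and in 16.4% of all. The G-box CACGTG, which contains ACGTG, was present in 1 of the 9, in 18% of the genes called lower, 7.48% of those called higher and 9.06% of all. The evening-element core AATATCT was present in 4 of the 9, in 14.8% of the genes called lower, 13.1% of those called higher and 11.7% of all. The HD-ZIP core AATNATT was present in 2 of the 9, in 40.7% of the genes called lower, 29.0% of those called higher and 35.2% of all. These shares are descriptions and carry no test, and a match describes these letters, not a bound site.

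Genes outside the lists were chosen here for a difference between the induced groups, and a dehydrin gene and a LEA protein gene were among them. A mean of at least 10 counts in 3 of the 4 groups was reached by 14126 genes. The difference was called for 440 of them. Of the 440, 108 were also called between the induced groups while the mock groups had an unadjusted p of 0.05 or more. These were 86 lower and 22 higher genes. The share of all tested genes that met the same 2 conditions was not computed, so these counts only describe the selection. ERD14, a dehydrin, had 1702, 1516 and 1256 CPM in induced and 1553, 1975 and 1934 CPM in mock CNA-SmHOX32 seedlings, against 3899.7, 5501 and 3188 CPM in induced and 1493, 1997 and 1666 CPM in mock CNA seedlings. AT2G23120, a LEA protein gene, had 176, 214 and 282 CPM in induced and 139.8, 196 and 203 CPM in mock CNA-SmHOX32 seedlings, against 589.6, 696 and 785 CPM in induced and 155, 135 and 144 CPM in mock CNA seedlings. For both genes the 3 induced CNA libraries were the highest and the CNA-SmHOX32 groups overlapped, with differences of -1.58 ± 0.26 (adjusted p = 8.01e-05) and -1.93 ± 0.31 (adjusted p = 5.35e-05). AT5G15500, an ankyrin repeat protein gene, had 5.55, 8.49 and 6.3 CPM in induced and 45.6, 41.5 and 31 CPM in mock CNA-SmHOX32 seedlings, against 94.4, 104 and 17 CPM in induced and 19.3, 22.7 and 34.6 CPM in mock CNA seedlings, so that it fell in CNA-SmHOX32 and rose in CNA, where replicate 3 was again lower than each mock library. Of those 22 higher genes, AT1G72060, annotated as a serine-type endopeptidase inhibitor, was the clearest. It had 1869.5, 1853 and 1586 CPM in induced and 833, 727 and 778 CPM in mock CNA-SmHOX32 seedlings, against 507, 586 and 947 CPM in induced and 762, 851 and 909 CPM in mock CNA seedlings, with each induced CNA-SmHOX32 library above the other 9, a difference of 1.49 ± 0.33 (adjusted p = 0.00544) and a call in the 12-library fit (adjusted p = 0.00807).

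Abscisic acid genes were lower in the difference for 5 of 14 tested, with 0 higher, beside 1.61% lower among all genes. They were NCED3, which encodes the enzyme that limits abscisic acid synthesis, CYP707A1, which encodes an enzyme that breaks the hormone down, and ABI1, HAI1 and PP2CA, clade A protein phosphatases that restrain its signalling and are themselves induced by it. NCED3 had 29.5, 75.5 and 22.2 CPM in induced and 70.4, 63.9 and 24.9 CPM in mock CNA-SmHOX32 seedlings, against 159.8, 126 and 126 CPM in induced and 12, 15.2 and 13.3 CPM in mock CNA seedlings. It rose 10.1-fold in CNA with no overlap (adjusted p = 6.87e-07) and was not called in CNA-SmHOX32, where the groups overlapped (adjusted p = 0.708). HAI1 had 158, 383 and 199 CPM in induced and 395, 324 and 276 CPM in mock CNA-SmHOX32 seedlings, against 385, 415 and 284 CPM in induced and 94.3, 61.1 and 134 CPM in mock CNA seedlings. All 5 genes rose in CNA and none was called in CNA-SmHOX32. The difference was -3.66 ± 0.64 for NCED3 (adjusted p = 0.0002) and -2.34 ± 0.45 for HAI1 (adjusted p = 0.000734). In the 12-library fit NCED3, HAI1 and PP2CA were called, whereas ABI1 (adjusted p = 0.0525) and CYP707A1 (adjusted p = 0.156) were not, and CYP707A1 was not called without mock replicate 2 of CNA-SmHOX32 either (adjusted p = 0.167). The mock groups already differed for 3 genes of the list, NCED3, HAI1 and PP2CA, all higher in CNA-SmHOX32 (3.74% of all genes). NCED3 was the sole one of the 3 that also differed between the induced groups (adjusted p = 0.0135).

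For some gene groups, described below, more of the difference lay between the mock seedlings. The abscisic acid list was divided. Its median log2 difference was 1.03 between the mock groups and -0.87 between the induced groups. Of its 14 tested genes, 3 were called higher between the mock groups and 5 lower between the induced groups (3.74% and 3.56% of all genes). Of the 519 genes called, 293 also differed between the mock groups and 199 between the induced groups, beside 8.68% and 6.07% among all genes. The difference in response is made of the same libraries, so these counts describe it and are no separate evidence. The log2 difference between mocks was the larger in size for 158 of the 214 higher genes and 137 of the 305 lower ones. The same share over all tested genes was not computed, so these counts do not set the called genes apart from the rest.

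**Figure D4:**
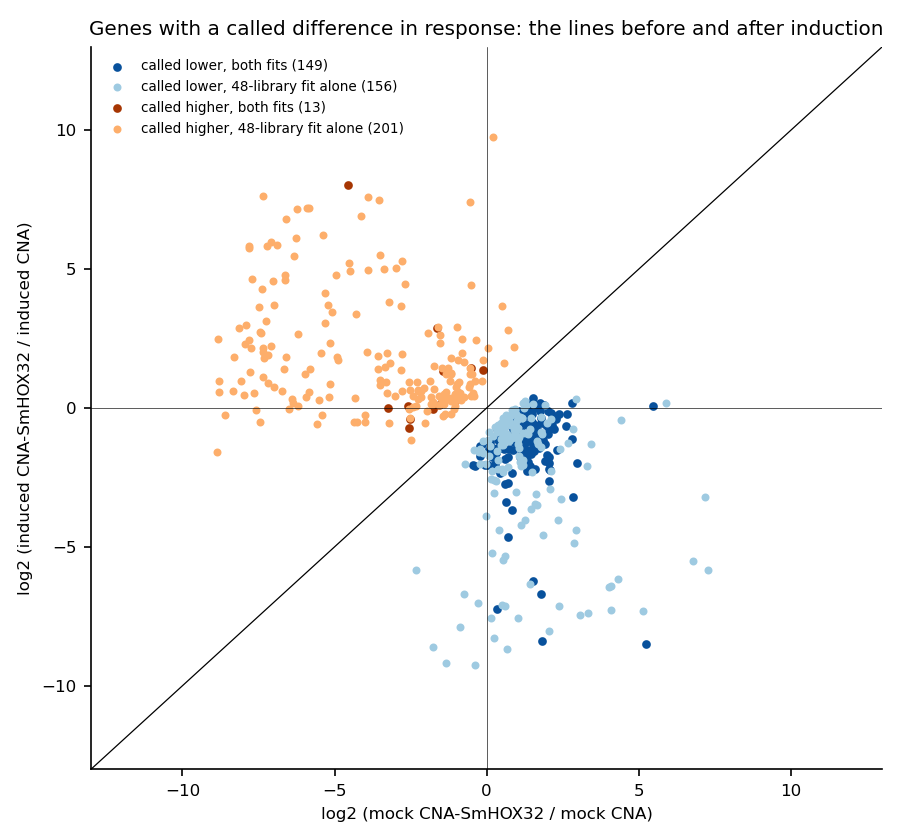
The 519 genes called in the difference in response, with the log2 ratio of mock CNA-SmHOX32 to mock CNA on the x axis and of induced CNA-SmHOX32 to induced CNA on the y axis; colours as in the plot of responses. Points far along the x axis and near 0 on the y axis differed between the lines before induction, and points far along the y axis after it; lower genes (blue) spread along both axes.

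Cuticular wax genes were a group where more of the difference lay between the mock seedlings. Of 10 tested, 5 were called lower (CER3, KCS1, KCS6, KCS10 and LTPG1) and 0 higher, beside 1.61% lower among all genes, with a median of -0.99. The KCS genes encode elongases of very-long-chain fatty acids, CER3 acts in alkane formation, and LTPG1 is an anchored lipid transfer protein of the cuticle. KCS1 had 479, 477 and 431 CPM in induced and 352, 437 and 328 CPM in mock CNA-SmHOX32 seedlings, against 381, 429.6 and 473 CPM in induced and 94.5, 116 and 144 CPM in mock CNA seedlings. Its mock CNA libraries were the lowest of the 12, and the other 3 groups overlapped. The same 5 genes were higher in mock CNA-SmHOX32 than in mock CNA (3.74% of all genes) and rose in CNA (4.05%), and none was called in CNA-SmHOX32. CER3, KCS1 and KCS10 were called in the 12-library fit, and LTPG1 was not called without mock replicate 2 of CNA-SmHOX32 (adjusted p = 0.056). The count was 3 without induced replicate 2 or 3 of CNA, mock replicate 1 or 2 of CNA, or induced replicate 3 of CNA-SmHOX32. Against CNA-PpHOX32 no wax gene was called by edgeR or by limma's voom, and 1 was called by DESeq2. Unadjusted edgeR p-values were below 0.05 for 3 of the 10, beside 3086 of all 18909 genes. The epidermis markers ATML1, PDF1 and PDF2 summed to 102 to 175 CPM in induced and 124 to 227 CPM in mock CNA-SmHOX32 seedlings, against 158 to 251 CPM in induced and 142 to 201 CPM in mock CNA seedlings. PDF1 was called lower and the other 2 were not, and the part of epidermal tissue in the wax result was not tested.

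Lipid transfer protein genes, whose products carry lipids through the cell wall, were lower for 3 of 6 (LTP2, LTP3 and LTP5), beside 1.61% of all genes, also in the 12-library fit (0.942%). The count was 1 without induced replicate 1 of CNA. LTP3 had 38.7, 14.4 and 30.2 CPM in induced and 473, 509 and 190.0 CPM in mock CNA-SmHOX32 seedlings, against 147, 23.3 and 6.3 CPM in induced and 28.3, 30.9 and 109 CPM in mock CNA seedlings. It fell in CNA-SmHOX32 (adjusted p = 2.92e-05), where induced and mock libraries did not overlap, and its 2 CNA groups overlapped widely. LTP2 had 861, 1038 and 713 CPM in induced and 1946, 1542 and 1446 CPM in mock CNA-SmHOX32 seedlings, against 789.9, 635 and 619.6 CPM in induced and 480.2, 586 and 655 CPM in mock CNA seedlings. Mock CNA-SmHOX32 was the highest group for both genes, and LTP2 was not called without mock replicate 2 of that group (adjusted p = 0.0529). Reads of LTP3 and of its neighbour LTP4 may be split between similar copies. Among 13 plasma membrane aquaporin genes, which encode water channels, PIP1;4 alone was called by edgeR in the 48-library and 12-library fits. It had 379.9, 516 and 330.4 CPM in induced and 762, 759 and 559 CPM in mock CNA-SmHOX32 seedlings, against 422, 430.0 and 493 CPM in induced and 257, 264 and 264 CPM in mock CNA seedlings. It fell in CNA-SmHOX32 (adjusted p = 0.00209), rose in CNA (adjusted p = 0.00155), and its difference of -1.54 ± 0.25 was called in both fits (adjusted p = 5.27e-05 with 48 libraries). Over the 13 genes the median difference was -0.70, and 11 were negative. DESeq2 called 5 of them (1015 of all 18909 genes) and limma's voom 1, and 4 were called lower with the GC correction. Unadjusted edgeR p-values were below 0.05 for 7, beside 3161 of all 18909 genes. Against CNA-PpHOX32 edgeR called 4 lower (1.03% of all genes), and voom called 2. BAM1, a β-amylase of starch breakdown, had 330.1, 386 and 303 CPM in induced and 929, 1111 and 646 CPM in mock CNA-SmHOX32 seedlings, against 583, 808 and 586 CPM in induced and 478, 523 and 552 CPM in mock CNA seedlings. It fell in CNA-SmHOX32 with no overlap and was not called in CNA (adjusted p = 0.355).

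In 20 of the 14126 genes with a mean of at least 10 counts in 3 of the 4 groups, the lines moved in called opposite directions. All 20 were among the 440 of these genes called in the difference, 17 lower and 3 higher. AT2G28400, annotated as a senescence regulator, had 73.9, 53.3 and 55.4 CPM in induced and 252, 173 and 129 CPM in mock CNA-SmHOX32 seedlings, against 216, 173 and 209 CPM in induced and 60.4, 58.1 and 102 CPM in mock CNA seedlings. AT1G73920, an α/β-hydrolase gene, had 153, 217 and 198 CPM in induced and 345, 344 and 274 CPM in mock CNA-SmHOX32 seedlings, against 351, 392 and 381 CPM in induced and 136, 118 and 134 CPM in mock CNA seedlings. In both genes the induced CNA-SmHOX32 and mock CNA libraries were low and the mock CNA-SmHOX32 and induced CNA libraries high, with no overlap within a line. AT4G22240, a plastid lipid-associated (fibrillin) gene, followed the same order with 92.3, 83.3 and 83.3 CPM in induced and 156, 146 and 167 CPM in mock CNA-SmHOX32 seedlings, against 193, 258 and 154 CPM in induced and 78.5, 79 and 92.3 CPM in mock CNA seedlings. The difference was -3.05 ± 0.46, -2.30 ± 0.27 and -2.13 ± 0.30 for these 3 genes, with adjusted p = 1.53e-05, 7.31e-08 and 3.14e-06. The 3 higher ones were AT1G42430, BGAL4 and AT2G03640. AT1G42430 had 91.1, 105 and 78.3 CPM in induced and 45.8, 20.1 and 45.5 CPM in mock CNA-SmHOX32 seedlings, against 51.7, 86.1 and 138 CPM in induced and 372, 401 and 303 CPM in mock CNA seedlings, so that its mock CNA libraries stood far above the rest. BGAL4, a β-galactosidase gene, had 195, 174 and 144 CPM in induced and 67.7, 109 and 74.8 CPM in mock CNA-SmHOX32 seedlings, against 208, 173 and 149 CPM in induced and 241, 289 and 324 CPM in mock CNA seedlings, and its 2 induced groups overlapped. AT2G03640, a nuclear transport factor 2 family gene, lost its call in the 12-library fit (adjusted p = 0.0857).

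Among the genes called higher, few belonged to a list. Sugar starvation genes, which rise when carbohydrate runs short, were higher for 3 of 15 and lower for 0, beside 1.13% higher among all genes, and for 1 of 15 without induced replicate 2 of CNA. DIN10, of the raffinose synthase family, had 589, 384 and 564 CPM in induced and 156, 156 and 222 CPM in mock CNA-SmHOX32 seedlings, against 358, 632 and 443 CPM in induced and 476, 521 and 577 CPM in mock CNA seedlings. It rose in CNA-SmHOX32 without overlap, its mock CNA-SmHOX32 libraries were the lowest of the 12, and it was called in both fits (difference 1.66 ± 0.30, adjusted p = 0.000347). BCAT-2, which breaks down branched-chain amino acids, and MIOX2, which oxidises inositol, followed the same order in CNA-SmHOX32. They were not called in the 12-library fit (adjusted p = 0.0616 and 0.344), nor was BCAT-2 without mock replicate 2 of CNA-SmHOX32 (adjusted p = 0.0619). The mock groups differed for 8 genes of the list, all lower in CNA-SmHOX32 (4.94% of all genes). Between the induced groups 5 genes of the list were lower and 2 higher in CNA-SmHOX32 (3.56% and 2.51% of all genes). DIN10 and BCAT-2 overlap antisense neighbours.

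Type-A response regulator genes, which cytokinin induces and which dampen its signalling, were higher for 2 of 7, beside 1.13% of all genes. The count was 1 without induced replicate 1 or 2 of CNA, mock replicate 3 of CNA or induced replicate 3 of CNA-SmHOX32. RR5 had 65.1, 28.4 and 54.8 CPM in induced and 61.2, 68.3 and 31.5 CPM in mock CNA-SmHOX32 seedlings, against 5.56, 11.1 and 5.46 CPM in induced and 25, 30.1 and 42.7 CPM in mock CNA seedlings. ARR6 had 37.4, 20.8 and 48 CPM in induced and 48.8, 56.8 and 42 CPM in mock CNA-SmHOX32 seedlings, against 7.22, 0 and 0 CPM in induced and 29.7, 33.1 and 40.4 CPM in mock CNA seedlings. For both genes the 3 induced CNA libraries were the lowest of the 12 and the CNA-SmHOX32 groups overlapped. They fell in CNA (adjusted p = 5.49e-05 and 2.53e-05), as did 5 of the 7 genes of the list in all (3.96% of all genes), while none was called in CNA-SmHOX32. The differences of 2.08 ± 0.53 and 3.15 ± 0.81 were called with 48 libraries (adjusted p = 0.0185 and 0.0196) and not with 12 (adjusted p = 0.179 and 0.218). Against CNA-PpHOX32 edgeR, DESeq2 and limma's voom each called 0 of the 7 genes, and the median difference was 0.10. Unadjusted edgeR p-values were below 0.05 for 0 of the 7 in that comparison, beside 3086 of all 18909 genes.

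Photosynthesis genes fell in both lines. Of 32 photosystem and light-harvesting genes, 30 fell in CNA-SmHOX32 and 29 in CNA, with median log2 ratios of -1.23 in CNA-SmHOX32 and -1.13 in CNA, beside 5.38% and 3.96% of all genes. By edgeR none of the 32 was called in the difference, in the 48-library fit, in the 12-library fit, or with any 1 of the 12 libraries left out. With no filter on low counts, edgeR called LHCB6 higher and LHB1B2 lower, both light-harvesting proteins of photosystem II. In the 48-library fit unadjusted p-values below 0.05 were reached by 3 of the 32, beside 3161 of all 18909 genes. DESeq2 called 0 and limma's voom 0, and the median difference was -0.06. Rubisco and Calvin cycle genes fell for 15 of 16 in CNA-SmHOX32 (5.38% of all genes) and 16 of 16 in CNA (3.96%). The sole one called in the difference was RCA, Rubisco activase, which fell further in CNA-SmHOX32 (difference -1.31 ± 0.34, adjusted p = 0.0214, but 0.102 in the 12-library fit). The NDH complex, which carries cyclic electron flow, had 8 of 17 genes lower in CNA-SmHOX32 (5.38% of all genes) and 9 in CNA (3.96%). In the difference edgeR called 0 in the 48-library fit, DESeq2 0 and voom 0. An unadjusted edgeR p below 0.05 was reached by 4 of the 17, beside 3161 of all 18909 genes.

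**Figure D5:**
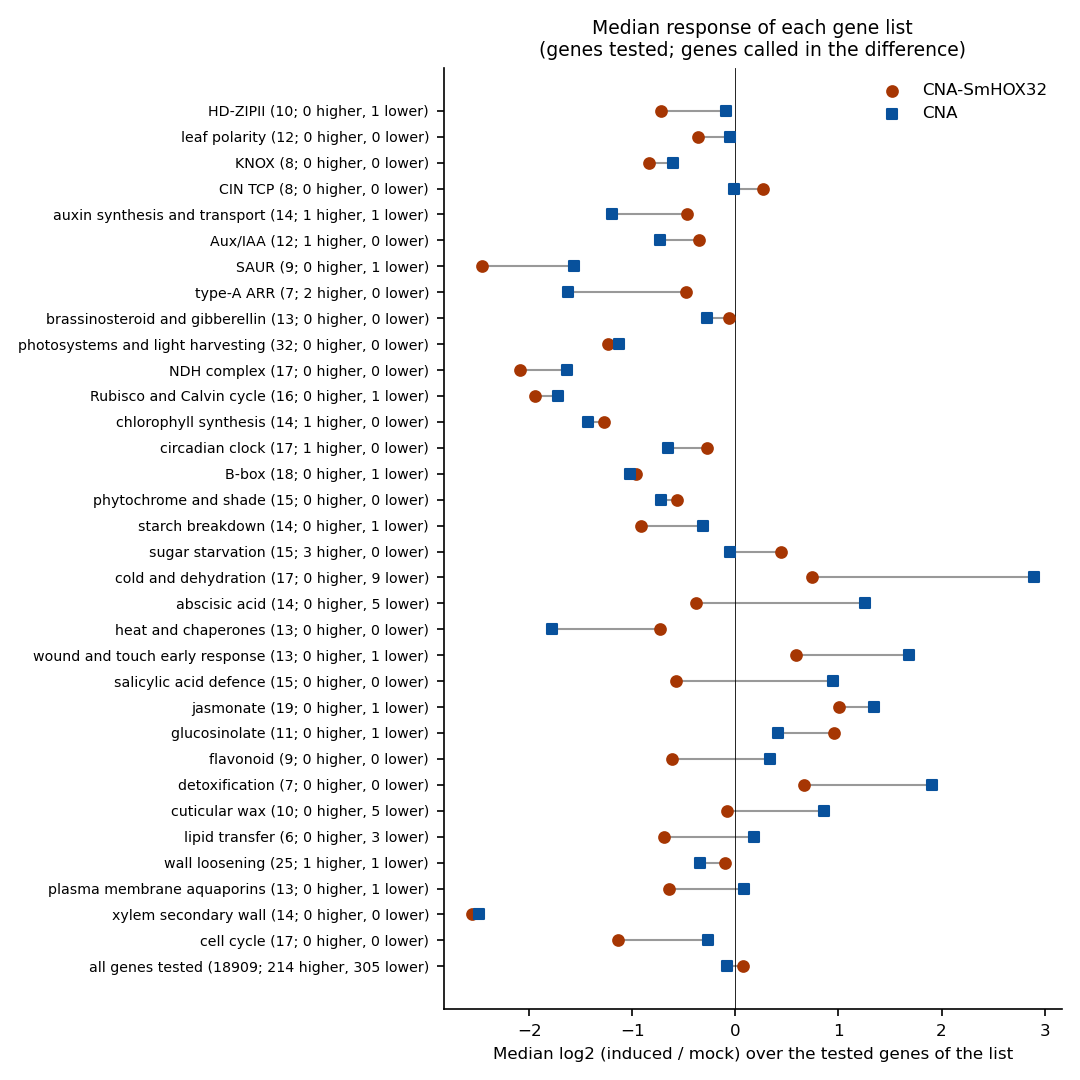
Median log2 induced-over-mock ratio (x axis) over the tested genes of each gene list, for CNA-SmHOX32 (orange circles) and CNA (blue squares), with the genes tested and those called in the difference in brackets. The cold and dehydration list has the largest number of called genes (9 of 17), and for photosystem genes the 2 medians nearly coincide.

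The largest fitted differences came from genes that were nearly absent from 1 group, where a fold change depends on the counting floor of 3 counts per library (0.276 to 1.18 CPM). The 8 lower ones of this kind had at most 3 counts in each induced CNA-SmHOX32 library. AT4G12520, of the lipid transfer protein superfamily, had 31.5, 18 and 7.34 CPM in mock CNA-SmHOX32 seedlings and 0 counts in the induced ones, so that it was at least 36-fold lower after induction. It had 3.61, 3.16 and 1.05 CPM in induced and 20.6, 15.8 and 8.73 CPM in mock CNA seedlings. AT2G36770, a glycosyltransferase gene, was at least 20.4-fold lower, with 6.44, 19.7 and 6.05 CPM in the mock seedlings, and was called in both fits (adjusted p = 0.000614 with 48 libraries). Lhca6, a light-harvesting protein of photosystem I, was at least 29.3-fold lower and also called in both fits. The 8 genes with the largest positive difference were low throughout. For 7 of them, among them IPT9 of cytokinin synthesis, mock CNA-SmHOX32 libraries had 0 counts while the induced ones had 3.39, 7.62 and 14.8 CPM (the values of IPT9). IPT9 had 1.8, 5.13 and 6.09 CPM in induced and 3.96, 7.13 and 2.85 CPM in mock CNA seedlings. None of these 8 genes was called in the 12-library fit, and their adjusted p-values there ran from 0.0677 to 0.301.

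Against the other chimera, CNA-PpHOX32, 432 genes differed in response (2.28%), 238 higher and 194 lower. This comparison shares the CNA-SmHOX32 libraries with the one against CNA, so overlaps between them are not given. LTI30, for example, rose to 1886, 1827 and 1513 CPM in induced CNA-PpHOX32 seedlings, against 165, 153 and 121 CPM in mock ones, and the response of CNA-SmHOX32 was the lower by -2.27 ± 0.30 (adjusted p = 3.65e-06). For NCED3 that difference was -1.15 ± 0.63 and was not called (adjusted p = 0.361). For KCS1 it was -0.34 ± 0.31 (adjusted p = 0.639).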

How the data were processed

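The deposited tables hold raw counts of QuantSeq 3' reads per gene, 1 table per library, made by the authors. Per the submitters' processing notes the tools were Trimmomatic, STAR, featureCounts and DESeq2, and the build was TAIR10. Versions, the strandedness of counting and the handling of molecular identifiers are not given in the sources used here. Floors therefore take the counts as given, and overlapping or near-identical genes are uncertain. The SE values come from the edgeR fit and include the spread between libraries. Gene names come from RefSeq TAIR10.1, which held 28009 of the 28496 identifiers. Promoter sequence was read from the same assembly.

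Groups follow the labels. Counts were analysed with edgeR 4.0.16 (TMM, filterByExpr, quasi-likelihood F test) in R 4.3.3, over 16 group means of 48 libraries, with Benjamini-Hochberg adjustment within each comparison. The fit was also run on simulated counts with the same spread in every group. That run does not cover the unequal spread of these lines and says nothing about the calls it affects. Alternatives were DESeq2 1.42.0, its size factors, limma 3.58.1 voom with group weights, other filters, the 12 or 18 libraries alone, a GC correction on the last 500 exonic bases, thinning to 2812517 counts, a replicate block, and leaving out each library. The labels do not say whether a replicate number marks a shared batch. Deviations from group means correlated at -0.025 to 0.0369 over the 6 same-numbered pairs of induced and mock libraries. For pairs with different numbers the range was -0.058 to 0.048. With 3 libraries per group this shows no pairing but cannot exclude it. No 2 replicates were 1 library deposited again (chi-square per degree of freedom 16.7 to 39.6).

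The comparison, the gene lists and the rule for named genes were chosen with earlier results of these data known. The rule named HD-ZIPIII and ZPR genes and, among called genes with a mean of at least 10 counts in 3 of the 4 groups, 4 further kinds. These were the 8 largest differences per direction with non-overlapping libraries in a line, the 4 per direction with the smallest adjusted p among genes called in opposite directions, the 4 per direction called between induced groups alone, and up to 4 called members per list. Of the 71 genes it named, those that best show each pattern are described. KCS6, LEA14, LTI65, LTI78, KIN1, KIN2, CYP707A1, COR15A, COR15B, CBF1, CBF2, DREB1A, XTH16, LHCB6 and LHB1B2 are list members described after their values were seen.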

Additional observations from a re-analysis of the deposited data

Results flagged for a closer look

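The comparison itself tests whether the effect of induction differed between the lines, and 519 genes passed that test. Of the genes named because both inductions were called in opposite directions, 7 are listed here with their log2 difference in response (CNA-SmHOX32 minus CNA). The lower ones were -3.38 for RAB18, -3.05 for AT2G28400, -2.30 for AT1G73920 and -2.13 for AT4G22240. The higher ones were 3.25 for AT1G42430, 1.72 for BGAL4 and 1.35 for AT2G03640. Each was tested with the difference in response in edgeR's fit. For RAB18 the rise in CNA was absent from replicate 3, which had 1027 CPM after induction.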

How the results depend on the processing

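The count of 519 genes was 1015 with DESeq2, 167 with the 12 libraries alone, 146 with limma's voom and 157 with the 18 libraries of these 2 lines and CNA-PpHOX32, a setting chosen after seeing the data. In the same 18 libraries CNA-SmHOX32 induction called 834 genes, CNA induction 940, the mock groups 630, the induced groups 433 and CNA-SmHOX32 against CNA-PpHOX32 90. With 12 libraries the first 4 of these gave 779, 943, 642 and 436. With voom, CNA-SmHOX32 induction gave 647, the mock groups 957, the induced groups 404 and CNA-SmHOX32 against CNA-PpHOX32 50. DESeq2 called 1879 genes between the induced groups and 943 for CNA-SmHOX32 against CNA-PpHOX32. The fits with fewer libraries estimate the spread from those libraries, where it was larger than over the series.

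With the replicate block, 361 genes were called in the difference (138 higher, 223 lower), 322 of them among the 519, and 264 against CNA-PpHOX32. Whether the numbers pair the samples is not given. With 1 library left out, the difference gave 308 to 751 genes, CNA-SmHOX32 induction 1376 to 2303, CNA induction 1078 to 1620, the mock groups 997 to 1952, the induced groups 615 to 1289 and CNA-SmHOX32 against CNA-PpHOX32 296 to 622. The lowest count of the difference, 308, came without replicate 2 of induced CNA, and it was 325 without replicate 2 of mock CNA and 400 without mock replicate 2 of CNA-SmHOX32. The cause was not tested.

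Signs turned for 5 of the genes named, all uncalled. With 1 library left out they ran from -1.66 to 0.42 for HB-8, -0.97 to 0.15 for ATHB-15, -0.074 to 0.88 for PHB, -0.71 to 0.12 for ZPR1 and -0.34 to 6.18 for ZPR3. At these depths a gene with at most 3 counts in a library is below 0.276 to 1.18 CPM and not distinguishable from absent.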

Other observations

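Some lists had 1 or 2 called genes. HB-2, an HD-ZIPII gene known from shade avoidance, had 0.406, 0.173 and 0 CPM in induced and 7.28, 2.38 and 2.02 CPM in mock CNA-SmHOX32 seedlings, against 11.6, 13 and 15.3 CPM in induced and 27.9, 14.9 and 17.3 CPM in mock CNA seedlings, so that it had at most 3 counts in each induced CNA-SmHOX32 library and was at least 7.4-fold lower there than in the mock seedlings. Its call was absent from the 12-library fit (adjusted p = 0.34, edgeR). PIN3, an auxin exporter, had 145, 55.1 and 125 CPM in induced and 113, 132 and 131 CPM in mock CNA-SmHOX32 seedlings, against 91.1, 90.8 and 62.5 CPM in induced and 221, 209.5 and 193 CPM in mock CNA seedlings. It fell in CNA (adjusted p = 3.19e-05) and was not called in CNA-SmHOX32 (adjusted p = 0.627), and the difference of 1.14 ± 0.33 was not called in the 12-library fit (adjusted p = 0.294) or without mock replicate 2 of CNA-SmHOX32 (adjusted p = 0.0662). Another gene of its list, the auxin synthesis gene YUC8, was called lower (adjusted p = 0.0496, and 0.404 in the 12-library fit). XTH24, which remodels xyloglucan in the cell wall, rose in both lines, 1.78-fold in CNA-SmHOX32 and 4.48-fold in CNA, with a difference of -1.33 ± 0.36 (adjusted p = 0.0284) that was not called without mock replicate 2 of CNA-SmHOX32 (adjusted p = 0.146). XTH16, of the same list, was called higher (adjusted p = 0.033, and 0.288 in the 12-library fit, 0.0662 without that library).

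STZ, a zinc finger gene of early stress responses, had 43.3, 33.6 and 73.3 CPM in induced and 37.8, 53.7 and 54.8 CPM in mock CNA-SmHOX32 seedlings, against 61.2, 22.9 and 89.2 CPM in induced and 7.28, 13.4 and 7.22 CPM in mock CNA seedlings. The mock CNA libraries were the lowest of the 12, and the other 3 groups overlapped. CYP79B2, which acts in indole glucosinolate synthesis, had 59.8, 103 and 98 CPM in induced and 98.2, 129 and 34.5 CPM in mock CNA-SmHOX32 seedlings, against 64.6, 89.6 and 75.1 CPM in induced and 20.8, 5.7 and 10.3 CPM in mock CNA seedlings, and its mock CNA libraries were again the lowest. Both genes rose in CNA and were higher in mock CNA-SmHOX32 than in mock CNA (adjusted p = 0.00138 and 0.000264). Their differences of -2.60 ± 0.71 and -2.63 ± 0.73 were called in both fits but not without mock replicate 2 of CNA-SmHOX32 (adjusted p = 0.0504 and 0.097).

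Among 11 tested root markers, PER64, a peroxidase of the endodermis, was called lower (difference -4.81 ± 1.19, adjusted p = 0.0134, but 0.125 in the 12-library fit), with 1.62, 0 and 0 CPM in induced and 22, 8.16 and 25.3 CPM in mock CNA-SmHOX32 seedlings, against 7.52, 18.16 and 13.4 CPM in induced and 16.8, 19.3 and 5.32 CPM in mock CNA seedlings. The 11 markers summed to 480.0 to 624 CPM in induced and 709 to 796 CPM in mock CNA-SmHOX32 seedlings, against 542 to 819 CPM in induced and 579 to 835 CPM in mock CNA seedlings. The Casparian strip marker CASP1 averaged 28.2 ± 17.9 CPM in induced and 44.5 ± 16.8 CPM in mock CNA-SmHOX32 seedlings (SD, n = 3 each) and was not called in any of the comparisons. PRP3 and EXPA7, root hair genes, were at or near 0 in all 4 groups. The part of root tissue in the differences was not tested.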
